A study of Arabidopsis thaliana with 8 samples.

Results

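The genes described here encode the isoforms at the entry and at the branch point of tetrapyrrole synthesis in Arabidopsis thaliana. They are 10 genes, taken by identifier from the 33199 genes of a deposited expression table: HEMA1, HEMA2, GSA1 and GSA2, which make the precursor aminolevulinic acid (ALA), FC1, FC2 and HO1 of the haem branch, and CHLH, CHLI1 and CHLI2 of the chlorophyll branch. Messenger RNA was measured by RNA-seq in 4 shoot samples and 4 root samples of the accession Col-0, and the labels name no treatment. The labels' growth protocol belongs to another species and was not used, so plant age and culture are unknown here. No label says whether the samples of a tissue are separate cultures, so p-values measure only spread among the samples, and that spread may be technical.

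Plants make all tetrapyrroles from glutamate in the plastid. Glutamyl-tRNA reductase (HEMA) and glutamate semialdehyde aminotransferase (GSA) form ALA, and a common trunk of enzymes turns ALA into protoporphyrin IX. There the pathway divides: magnesium chelatase, built from CHLH, CHLD and CHLI subunits, inserts magnesium and leads to chlorophyll, while ferrochelatase (FC) inserts iron and makes haem. Haem serves cytochromes, peroxidases and other enzymes in every organ, and haem oxygenase (HO) opens the haem ring on the way to the phytochrome chromophore.

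Gene-level reads numbered 10044638 to 11662309 in the shoot libraries and 9857791 to 12460762 in the root libraries. The values are FPKM, reads per kilobase of gene length, relative to a scaled library size, so levels can be compared between genes. Means are given ± SD over 4 libraries. Log2 fold changes are shoot minus root on the scale of log2(FPKM + 0.5), with the adjusted p of limma over the 20314 genes with 0.5 FPKM or more in 4 or more libraries. Genes with an adjusted p below 0.05 were called. Tissue identity was checked with 21 green tissue markers (light-harvesting, photosystem and Calvin cycle genes) and 11 root markers. The green markers summed to 110292 to 142538 FPKM in shoot and to 186 to 780.3 FPKM in root, with none at 0 in any library. The root markers summed to 3.11 to 8.55 FPKM in shoot, where 6 to 8 of them were at 0 in each library, and to 941.4 to 1237 FPKM in root. In bulk tissue, fewer cells of a type and less RNA per cell cannot be told apart.

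The stretches of 250 bases before the annotated starts of HEMA1, HEMA2, FC1 and CHLH are shown because these genes gave the contrasts described below: a pair of genes for 1 enzyme with unlike tissue differences, and the chelatase genes with opposite ones. They were read 5′ to 3′ on the gene's strand from the RefSeq genome TAIR10.1. Capitals mark the CCA1-binding site AAAATCT on either strand (AGATTTT on the other), the motif bound by clock-associated MYB factors in promoters of light-harvesting genes.
HEMA1 (chr1:21626403-21626652, minus strand): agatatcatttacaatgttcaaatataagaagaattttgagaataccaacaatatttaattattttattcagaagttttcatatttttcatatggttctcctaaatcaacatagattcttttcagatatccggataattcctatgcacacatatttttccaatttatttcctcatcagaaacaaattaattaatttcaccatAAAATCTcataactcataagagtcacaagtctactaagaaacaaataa
HEMA2 (chr1:3239555-3239804, minus strand): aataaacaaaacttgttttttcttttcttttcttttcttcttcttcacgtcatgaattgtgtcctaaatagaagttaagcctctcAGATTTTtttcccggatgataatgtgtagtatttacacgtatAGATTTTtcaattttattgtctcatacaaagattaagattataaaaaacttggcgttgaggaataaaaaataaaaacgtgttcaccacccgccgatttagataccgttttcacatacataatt
FC1 (chr5:9096201-9096450, plus strand): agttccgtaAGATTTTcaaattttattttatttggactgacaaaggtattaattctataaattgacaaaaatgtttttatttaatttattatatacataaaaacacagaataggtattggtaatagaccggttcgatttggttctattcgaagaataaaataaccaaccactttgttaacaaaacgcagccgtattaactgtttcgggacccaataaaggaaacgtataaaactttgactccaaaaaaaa
CHLH (chr5:4392430-4392679, minus strand): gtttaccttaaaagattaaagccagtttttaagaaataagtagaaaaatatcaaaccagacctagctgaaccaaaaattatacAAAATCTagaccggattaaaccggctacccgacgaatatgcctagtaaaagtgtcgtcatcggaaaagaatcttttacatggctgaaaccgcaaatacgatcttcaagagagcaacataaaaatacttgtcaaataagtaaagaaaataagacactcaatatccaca
The motif lay 48 bases before the start in HEMA1, 165 and 123 bases before it in HEMA2, 241 in FC1 and 167 in CHLH, counted from the motif's first base. Of the 10 genes, 5 had this motif in the window (the 4 shown and CHLI1), beside 16.5% of 27419 windows of protein-coding genes. The G-box CACGTG, which light-signalling bZIP and bHLH factors bind, occurred in 1 of the 10 windows, that of FC2, 14 bases before its start, beside 6.48% of all windows. The I-box core GATAAG and the evening element AAAATATCT, searched on both strands as well, occurred in 0 of the 10 windows, beside 12.3% and 2.36% of all windows. No motif overlapped another in the windows shown, and a match says only that the letters are there. The windows of GSA2 and CHLI1 also reach into neighbouring genes (AT3G48720 and AT4G18490), the window of CHLI1 being 1 of the 5 with the motif. The window of FC2 is not shown because 225 of its 250 bases lie in OFP17, the next gene upstream on the same strand, which ends 25 bases before FC2 begins.

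All 10 genes passed the filter, and 9 of them were higher in shoot, while FC1 was higher in root. Among all genes tested, 69.6% were called, 32.0% as higher in shoot and 37.6% as higher in root. The shoot and root values of each of the 10 genes did not overlap, which held for 64.8% of all genes tested. The median log2 fold change of the 10 genes was 3.16 and that of all genes tested was -0.07. These genes were chosen with earlier results of the same data known, so their counts describe them and support nothing further.

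**Figure D1:**
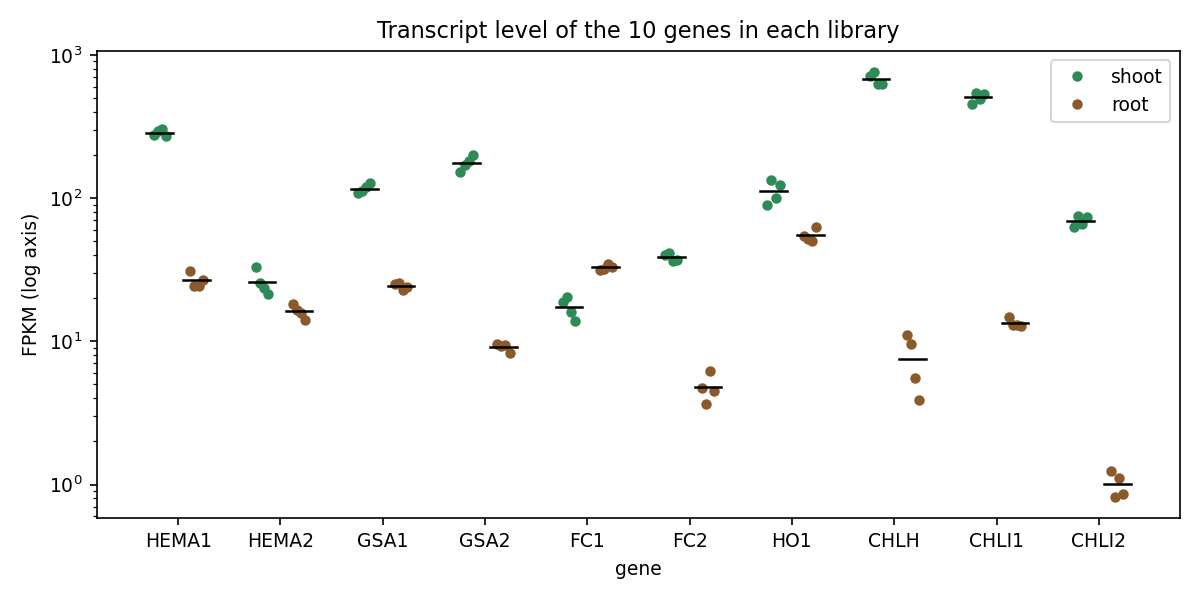
FPKM on a log axis of the 10 genes in 4 shoot libraries (green) and 4 root libraries (brown), each point 1 library and each line the mean of 4. FC1 is the gene whose root values, 31.7 to 34.6 FPKM, lie above its shoot values, 14.0 to 20.4 FPKM, and CHLH has the widest distance between tissues.

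HEMA1 and HEMA2 encode glutamyl-tRNA reductase, the enzyme that controls entry into the pathway. HEMA1 (AT1G58290, chromosome 1, 21623700 to 21626402, minus strand) had 277, 293, 302 and 272 FPKM in shoot libraries 1 to 4, and 31.2, 24.3, 24.5 and 26.7 FPKM in root libraries 1 to 4. Every shoot library stood far above every root library. The means were 286 ± 14.0 FPKM in shoot and 26.7 ± 3.2 FPKM in root (limma log2 fold change 3.41, SE of 0.10, adjusted p = 4.05e-10).

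HEMA2 (AT1G09940, chromosome 1, 3236908 to 3239554, minus strand), the second copy, differed much less between the tissues. It had 32.8, 25.6, 23.5 and 21.5 FPKM in the shoot libraries, and 18.2, 16.7, 15.8 and 14.0 FPKM in the root libraries. The lowest shoot library lay just above the highest root library. The means were 25.8 ± 4.95 FPKM in shoot and 16.2 ± 1.75 FPKM in root (limma log2 fold change 0.65, SE of 0.14, adjusted p = 0.00145). With library totals alone as the scaling, the log2 fold change of HEMA2 was 0.11 and no longer passed (adjusted p = 0.537, beside 0.000381 to 0.00569 over the other 17 alternatives). That scaling moved the median of all genes by -0.51, to -0.58, and the part of the calls that were higher in shoot to 24.8% in place of 46.0%. Relative to the median of all genes, HEMA2 lay 0.72 higher with the deposited scaling and 0.69 higher with library totals. The same scaling gave log2 fold changes of 0.46 for HO1, -1.47 for FC1 and -0.87 for COX10, all 3 still called.

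The balance of the 2 reductase genes therefore differed between tissues. HEMA1 exceeded HEMA2 8.44 to 12.9 times in shoot and 1.46 to 1.9 times in root, and the ranges did not overlap. The log2 ratio of HEMA1 to HEMA2 was 3.46 ± 0.28 in shoot and 0.70 ± 0.17 in root, a difference of 2.76. An exact two-sided permutation test gave p = 0.0286, the smallest that 4 against 4 libraries allow. The same p was found for each of the 6 ratios compared here, and it stayed 0.0286 after adjustment over the 6. HEMA2 made up 8.28 ± 1.58% of the summed level of both genes in shoot and 37.8 ± 2.75% in root. The summed level was 312 ± 13.8 FPKM in shoot and 42.8 ± 4.37 FPKM in root, a ratio of means of 7.29.

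GSA1 and GSA2 encode the aminotransferase that completes ALA. GSA1 (AT5G63570, chromosome 5, 25451800 to 25453845, plus strand) had 108, 112, 120 and 127 FPKM in the shoot libraries, and 25.0, 25.3, 22.7 and 23.8 FPKM in the root libraries. Its means were 117 ± 8.37 FPKM in shoot and 24.2 ± 1.23 FPKM in root (limma log2 fold change 2.24, SE of 0.08, adjusted p = 1.99e-09). The values of each tissue lay close together, with a wide gap between tissues.

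GSA2 (AT3G48730, chromosome 3, 18049571 to 18051778, plus strand) had 151, 171, 181 and 201 FPKM in the shoot libraries, and 9.63, 9.31, 9.37 and 8.28 FPKM in the root libraries. Its means were 176 ± 21.0 FPKM in shoot and 9.15 ± 0.597 FPKM in root (limma log2 fold change 4.19, SE of 0.10, adjusted p = 1.74e-10). GSA2 was the more abundant copy in every shoot library and the less abundant one in every root library.

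GSA1 stood at 0.630 to 0.717 times GSA2 in shoot and at 2.42 to 2.88 times GSA2 in root. The log2 ratio of GSA1 to GSA2 was -0.59 ± 0.08 in shoot and 1.36 ± 0.10 in root, a difference of -1.95 (exact two-sided permutation test, p = 0.0286). GSA1 was 39.9 ± 1.3% of the summed level of both genes in shoot and 72.6 ± 1.46% in root. The sum was 293 ± 29.2 FPKM in shoot and 33.4 ± 1.5 FPKM in root, a ratio of means of 8.78, near that of the reductase pair.

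The ferrochelatases differed between tissues in opposite directions. FC1 (AT5G26030, chromosome 5, 9096451 to 9099185, plus strand) had 18.7, 20.4, 16.0 and 14.0 FPKM in the shoot libraries, and 31.7, 32.1, 34.6 and 33.1 FPKM in the root libraries. Every root library was higher than every shoot library. The means were 17.3 ± 2.85 FPKM in shoot and 32.9 ± 1.28 FPKM in root (limma log2 fold change -0.92, SE of 0.12, adjusted p = 3.45e-05).

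FC2 (AT2G30390, chromosome 2, 12950954 to 12954148, minus strand) had 40.4, 41.3, 36.1 and 37.2 FPKM in the shoot libraries, and 4.69, 3.67, 6.2 and 4.53 FPKM in the root libraries. The shoot values were close to each other, and root library 3 was the highest of the root libraries. The means were 38.8 ± 2.49 FPKM in shoot and 4.77 ± 1.05 FPKM in root (limma log2 fold change 2.92, SE of 0.14, adjusted p = 1.3e-08).

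FC2 exceeded FC1 2.03 to 2.67 times in shoot, whereas in root FC1 exceeded FC2 5.57 to 8.76 times. The log2 ratio of FC2 to FC1 was 1.16 ± 0.16 in shoot and -2.68 ± 0.24 in root, a difference of 3.84 (exact two-sided permutation test, p = 0.0286). Each gene alone separated the tissues, in opposite directions, so this p had to be the smallest possible and adds nothing to the single genes. FC1 was 30.7 ± 2.46% of the summed ferrochelatase level in shoot and 87.4 ± 2.06% in root. The sum itself was 56.0 ± 5.17 FPKM in shoot and 37.6 ± 2.23 FPKM in root, a ratio of means of 1.49. The ALA steps had ratios of 7.29 and 8.78. These ratios rest on the deposited scaling, which put library sizes at 0.770 to 0.865 of the read total in shoot and 1.18 to 1.25 in root. With library totals alone, the log2 fold changes were -1.47 for FC1 and 2.39 for FC2. The sum was not compared with that scaling, so the direction of its small difference is not settled.

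**Figure D2:**
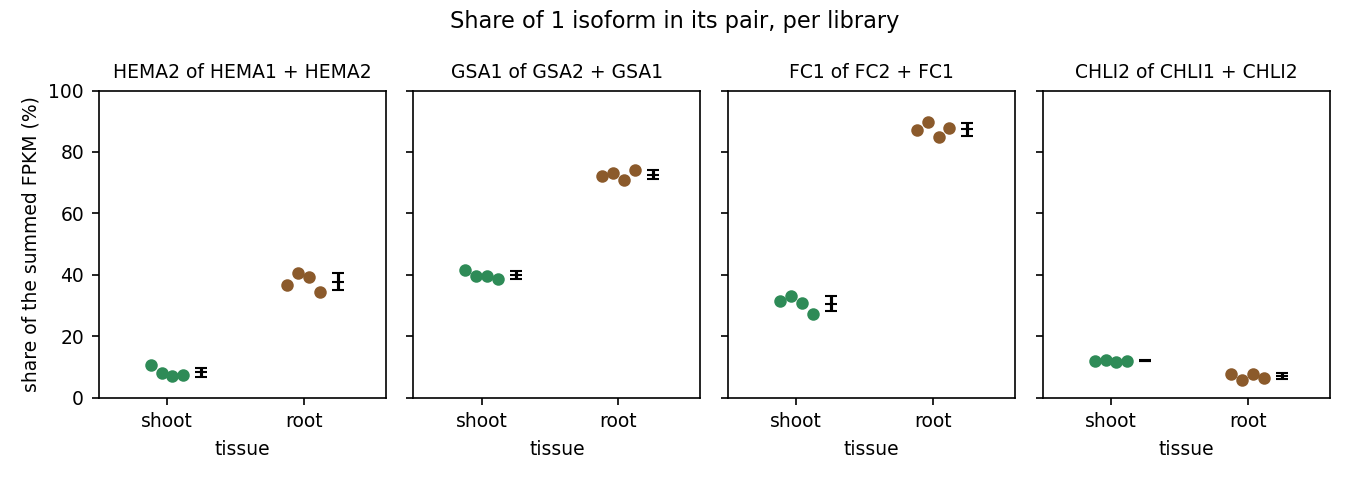
Share of 1 isoform in the summed FPKM of its pair, in percent, for 4 shoot libraries (green) and 4 root libraries (brown), with mean and SD beside the points. The shares of HEMA2, GSA1 and FC1 were higher in root, FC1 at 27.3% to 33.1% in shoot and 84.8% to 89.7% in root, and the share of CHLI2 was lower in root.

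HO1 (AT2G26670, chromosome 2, 11341548 to 11343693, plus strand), the main haem oxygenase, was the most abundant of the 10 genes in root. It had 89.1, 134, 101 and 124 FPKM in the shoot libraries, and 54.6, 51.9, 49.8 and 63.2 FPKM in the root libraries. The means were 112 ± 20.7 FPKM in shoot and 54.9 ± 5.9 FPKM in root (limma log2 fold change 1.01, SE of 0.14, adjusted p = 5.94e-05). Within shoot, libraries 2 and 4 were the higher ones for HO1, and they also had the higher sums of green tissue markers, 142538 and 141930 FPKM against 110292 and 113649 FPKM in libraries 1 and 3. The part of this in the result was not tested. HO1 stood at 1.51 to 2.42 times the summed ferrochelatases in shoot and at 1.22 to 1.68 times in root, ranges that overlap.

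CHLH, the subunit of magnesium chelatase that binds porphyrin, had the largest log2 fold change of the 10 genes. CHLH (AT5G13630, chromosome 5, 4387307 to 4392429, minus strand) had 712, 760.3, 626 and 628 FPKM in the shoot libraries, and 11.1, 9.63, 5.55 and 3.88 FPKM in the root libraries. It was the most abundant of the 10 genes in shoot and the eighth in root. The means were 681 ± 66.1 FPKM in shoot and 7.55 ± 3.4 FPKM in root (limma log2 fold change 6.51, SE of 0.27, adjusted p = 4.45e-09).

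CHLI1 and CHLI2 encode the ATPase subunit of the chelatase. CHLI1 (AT4G18480, chromosome 4, 10201672 to 10203469, minus strand) had 457, 544, 495 and 534 FPKM in the shoot libraries, and 14.9, 13.0, 12.9 and 12.7 FPKM in the root libraries. The means were 507 ± 39.8 FPKM in shoot and 13.4 ± 1.01 FPKM in root (limma log2 fold change 5.19, SE of 0.09, adjusted p = 6.03e-11). Root library 1 stood apart from the other root libraries, which lay at 12.7 to 13.0 FPKM.

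CHLI2 (AT5G45930, chromosome 5, 18627950 to 18629697, plus strand), the minor copy, had 62.6, 75.3, 65.8 and 73.6 FPKM in the shoot libraries, and 1.25, 0.823, 1.1 and 0.860 FPKM in the root libraries. The root values rest on 85 reads over 4 libraries, the fewest of any of the 10 genes. The means were 69.3 ± 6.12 FPKM in shoot and 1.01 ± 0.203 FPKM in root (limma log2 fold change 5.54, SE of 0.12, adjusted p = 1.27e-10).

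CHLI1 was the major copy in both tissues, at 7.22 to 7.52 times CHLI2 in shoot and at 11.7 to 15.8 times CHLI2 in root. The log2 ratio with the pseudocount was 2.86 ± 0.03 in shoot and 3.21 ± 0.13 in root, a difference of -0.34 (exact two-sided permutation test, p = 0.0286). This difference depended on the pseudocount, since it was 0.01 with 1 in place of 0.5 (exact permutation p = 0.8) and -0.75 with 0.1. CHLI2 was 12.0 ± 0.195% of the summed CHLI level in shoot and 6.98 ± 0.971% in root, with sums of 577 ± 45.8 FPKM in shoot and 14.4 ± 1.18 FPKM in root, a ratio of means of 40.1.

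The subunits of the chelatase did not keep their proportions between tissues. CHLH stood at 1.18 to 1.56 times CHLI1 in shoot and at 0.305 to 0.748 times CHLI1 in root. CHLD (AT1G08520), the subunit that joins CHLI in the motor complex and not among the 10 genes, stood at 149 ± 10.9 FPKM in shoot and 11.1 ± 2.37 FPKM in root (limma log2 fold change 3.72, SE of 0.14, adjusted p = 2.12e-09). CHLD was at 0.268 to 0.310 times CHLI1 in shoot and at 0.676 to 0.940 times CHLI1 in root. CHLD was named after its values were seen, and these subunit ratios were not tested.

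At the branch point, the chelatases for magnesium and iron were set against each other. CHLH was at 12.0 to 12.3 times the summed ferrochelatases in the shoot libraries, and at 0.306, 0.269, 0.136 and 0.103 times that sum in root libraries 1 to 4. The CHLH level thus exceeded the summed ferrochelatase level in every shoot library and lay below it in every root library. The log2 ratio of CHLH to FC1 was 5.27 ± 0.12 in shoot and -2.16 ± 0.69 in root, a difference of 7.43. The log2 ratio of CHLH to FC2 was 4.12 ± 0.05 in shoot and 0.52 ± 0.81 in root, a difference of 3.59. Exact two-sided permutation tests gave p = 0.0286 for both, and the root libraries varied more than the shoot libraries in both ratios. For CHLH to FC1 this p was fixed beforehand, since the 2 genes each separated the tissues in opposite directions.

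The root libraries held unequal amounts of green tissue transcript, more in libraries 1 and 2 than in 3 and 4, and CHLH was also higher in libraries 1 and 2. Between libraries 3 and 4 the order was not shared: library 4 had the higher marker sum, 219.1 against 186.1 FPKM, and the lower CHLH level. In root libraries 1 to 4, the median over the 21 green markers was 0.642%, 0.461%, 0.138% and 0.160% of the shoot mean, while CHLH lay at 1.63%, 1.41%, 0.815% and 0.570% of its shoot mean. The mean of root libraries 1 and 2 was 3.24 times that of libraries 3 and 4 for the marker sum, 2.2 times for CHLH, and 0.778 to 1.17 times for the other 9 genes. Averaged over the root libraries, all 10 genes lay at a higher percentage of their shoot mean than any of the 21 markers, of which the highest was at 0.83%. CHLH was nearest to the markers, at 1.11%, followed by CHLI2 at 1.46%, CHLI1 at 2.64%, GSA2 at 5.19% and HEMA1 at 9.31%. Without root libraries 1 and 2, an alternative chosen after seeing the data, the log2 fold change of CHLH was 7.04 and the difference in the log2 ratio of CHLH to FC2 was 4.29, in place of 6.51 and 3.59. The part of green tissue transcript in the root level of CHLH was not tested.

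**Figure D3:**
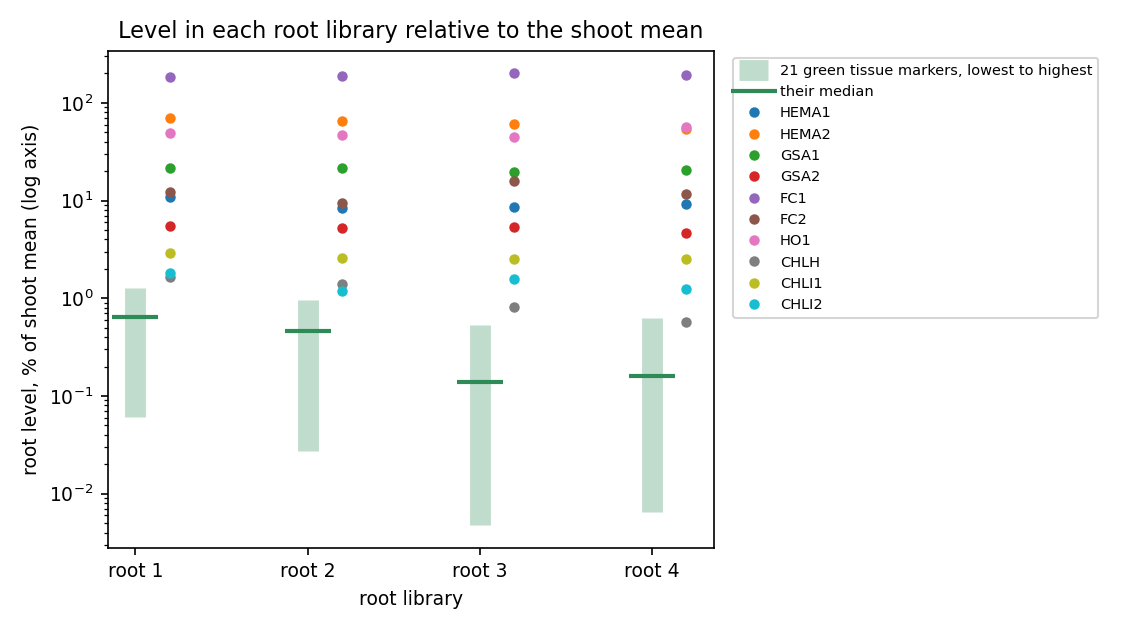
Level in each root library as a percentage of the mean of 4 shoot libraries, on a log axis, for the 10 genes (points) and for 21 green tissue markers (bar from lowest to highest, line at the median). The markers reach at most 1.27%, 0.968%, 0.529% and 0.626% in root libraries 1 to 4, FC1 lies near 190%, and CHLH, at 0.570%, lies below the highest marker in root library 4.

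The order of the 10 genes by level was not the same in the tissues. In shoot it ran from CHLH through CHLI1, HEMA1, GSA2, GSA1, HO1, CHLI2, FC2 and HEMA2 to FC1, and of these neighbours GSA1 and HO1 overlapped in their ranges over the libraries. In root it ran from HO1 through FC1, HEMA1, GSA1, HEMA2, CHLI1, GSA2, CHLH and FC2 to CHLI2. There the ranges overlapped between HEMA1 and GSA1, between HEMA2 and CHLI1, between GSA2 and CHLH, and between CHLH and FC2. FC1 was thus the lowest of the 10 in shoot and the second highest in root.

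Copies of an enzyme can share reads, so their sequences were compared in TAIR10.1. Coding sequences were identical at 83.1% of aligned bases for HEMA1 and HEMA2, at 83.5% for GSA1 and GSA2, at 81.8% for CHLI1 and CHLI2 and at 67.3% for FC1 and FC2. The longest run of identical bases shared by the transcripts was 49 bases for the HEMA pair, 38 for the GSA pair, 44 for the CHLI pair and 21 for the FC pair. No window of 150 bases, the read length, was shared by any of the 4 pairs. The libraries do not mark strand. FC1, CHLI1 and CHLI2 overlap a gene on the other strand by 34, 116 and 136 bases, so reads there cannot be told apart. These genes, HDA2, AT4G18465 and NUDT11, stood at 6.31, 6.03 and 8.85 FPKM in shoot and 7.04, 6.7 and 11.7 FPKM in root. FC1 also overlaps MIR860A on its own strand by 126 bases, a gene at 0 FPKM in both tissues. Whether reads in that stretch were counted for FC1 was not tested.

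The other genes of the pathway showed how far the tissue difference of the 10 genes was shared. Of 44 such genes, 39 passed the filter. Shoot had the higher level for 36 of them, root for 2, and 1, HEMA3, was not called, with a median log2 fold change of 2.91. Of all genes tested, 32.0% were called higher in shoot and 37.6% higher in root, with a median of -0.07. In the common trunk from ALA to protoporphyrin IX, 9 of 9 tested genes were higher in shoot (median 2.94). HEMC, hydroxymethylbilane synthase, stood at 263 ± 36.5 FPKM in shoot and 25.3 ± 1.4 FPKM in root (limma log2 fold change 3.34, SE of 0.11, adjusted p = 8.7e-10). HEME1 and HEME2, the uroporphyrinogen decarboxylases, had log2 fold changes of 3.6 and 3.45. The smallest log2 fold change in the trunk, 0.94, was that of PPO2, a protoporphyrinogen oxidase, against 2.68 for PPO1. Among the genes that control ALA synthesis, FLU, a repressor of the reductase in the dark, stood at 129 ± 10.7 FPKM in shoot and 16.9 ± 0.583 FPKM in root (limma log2 fold change 2.89, SE of 0.08, adjusted p = 4.48e-10), and GBP, a protein that binds the reductase, had a log2 fold change of 2.53. HEMA3, the third reductase copy, was at 0.479 ± 0.261 FPKM in shoot and 0.876 ± 0.371 FPKM in root (limma log2 fold change -0.49, SE of 0.26, adjusted p = 0.117).

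Beyond protoporphyrin IX, chlorophyll synthesis had 11 tested genes, and each was called higher in shoot (median log2 fold change 4.36). CRD1, a subunit of the cyclase, and PORC, a protochlorophyllide oxidoreductase, had the largest log2 fold changes, 6.63 and 6.46, and CHLP, geranylgeranyl reductase, stood at 1054 ± 155 FPKM in shoot and 19.3 ± 4.75 FPKM in root (log2 fold change 5.75). All 9 tested genes of chlorophyll turnover were also called higher in shoot (median 2.91). Among them were NYC1, chlorophyll b reductase (3.87), PAO, pheophorbide a oxygenase (4.05), and CLH1, a chlorophyllase (4.24). The smallest was SGR1 at 0.45 (limma adjusted p = 0.0207), whose shoot and root ranges overlapped. CLH2 rested on 35 reads over the shoot libraries and 7 over the root libraries. AT5G43870 on the other strand overlaps 47.7% of its span, so its counts are uncertain. Both genes of sirohaem synthesis were higher in shoot, UPM1, the methyltransferase, at 2.28 and SIRB, the ferrochelatase of sirohaem, at 1.69.

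On the haem side, 4 genes were tested, 2 higher in shoot and 2 higher in root (median log2 fold change 0.82). The sizes of change on the 2 sides were not compared by a test. HO2, a member of the haem oxygenase family, had a log2 fold change of 1.97, and HY2, which makes phytochromobilin, one of 2.06. COX10 and COX15, which convert haem b to haem a for mitochondrial cytochrome oxidase, were higher in root. COX10 stood at 23.6 ± 1.2 FPKM in shoot and 29.8 ± 3.56 FPKM in root (limma log2 fold change -0.32, SE of 0.10, adjusted p = 0.0134). COX15 stood at 7.86 ± 0.784 FPKM in shoot and 17.9 ± 1.33 FPKM in root (limma log2 fold change -1.14, SE of 0.10, adjusted p = 2.43e-06). With FC1, these were the 3 genes called higher in root among the 49 tested genes of the pathway. HEMA3 was called higher in root as well with library totals alone (log2 fold change -0.78, adjusted p = 0.0186) and without root library 4 (-0.67, adjusted p = 0.0443), while limma gave it adjusted p-values of 0.0749 to 0.429 under the other alternatives.

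The 5 pathway genes that did not pass the filter were HEMB2, HO3, HO4, GUN4 and SGR2. HEMB2, a second copy of ALA dehydratase, had 0 reads over the shoot libraries and 16 over the root libraries. HO3 had 36 reads over the shoot libraries and 0 over the root libraries, and HO4 had 19 and 2. GUN4, which activates magnesium chelatase, had 1 read over the shoot libraries and 24 over the root libraries. On the other strand GUN4 is overlapped over 73.0% of its span by GCN2, which stood at 9.77 FPKM in shoot and 3.91 FPKM in root, so its counts are uncertain.

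**Figure D4:**
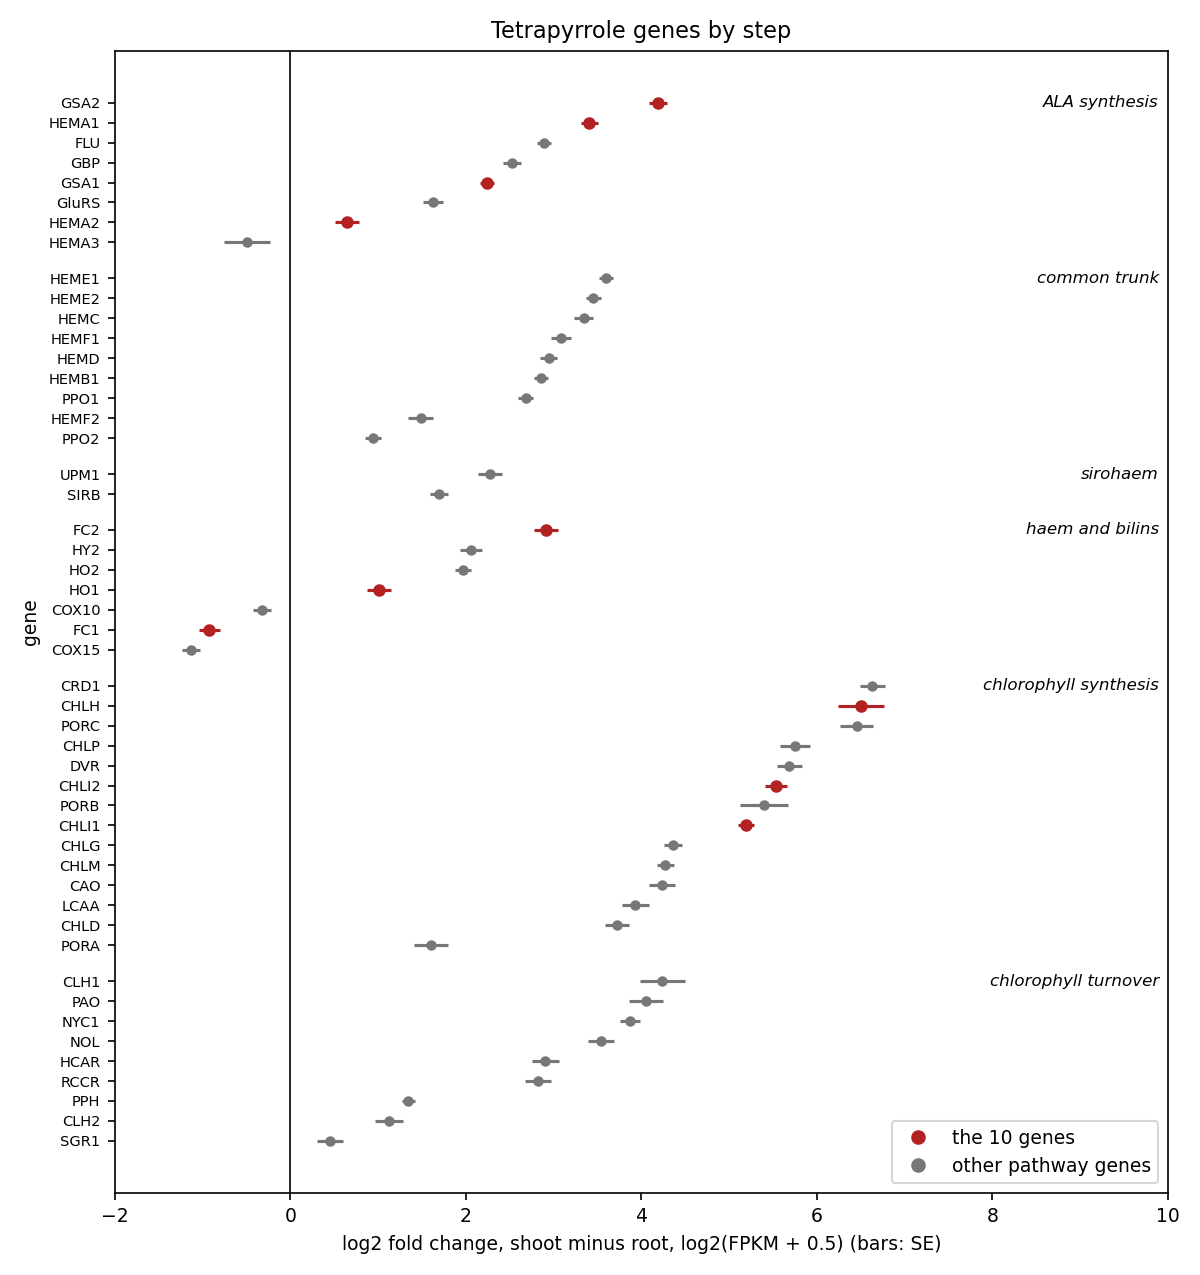
Log2 fold change, shoot minus root, with its SE for the 10 genes (red) and 39 other tested tetrapyrrole genes (grey), grouped by step. FC1, COX15 and COX10 lie left of 0 at -0.92, -1.14 and -0.32, as does HEMA3, which was not called, and the genes of chlorophyll synthesis reach 6.63.

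The genes whose profiles over the 8 libraries were most like those of the reductases and ferrochelatases were taken from 13549 other genes with a mean of at least 5 FPKM, by Pearson's r of log2(FPKM + 0.5). The libraries share tissue, depth and scaling, and no p is given. For HEMA1 they were DGP3 (r = 0.9995) and BCA2 (r = 0.9994), with 2814 genes at r of at least 0.95. For FC2 they were EGY1 (r = 0.998) and FLN1 (r = 0.998), with 2580 genes at that level. For FC1 they were AT4G39675 (r = 0.997) and AT1G56660 (r = 0.995), with 1075 genes. For HEMA2, which had the smallest log2 fold change in size of the 10, they were OFUT9 (r = 0.994) and GLDP2 (r = 0.990), with 83 genes.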

How the data were processed

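RNA-seq libraries of 4 shoot and 4 root samples were compared, grouped by the tissue in the sample titles. Per the labels' protocols, mRNA was selected with poly-T beads, unstranded cDNA was made from random hexamers, and read pairs of 150 bases were taken. The submitters' processing notes name TAIR10, featureCounts 1.5.0-p3 and HISAT2 2.0.5. Settings for scaling, strand and multi-mapping are not stated in the sources used here. The deposited values are FPKM made by the authors, worked out from the values: multiplied by gene length, they come in whole multiples of a step that differs by library, which gave the reads (largest deviation 1.37e-09 reads). Relative to its read total, the scaled size of a library was 0.770 to 0.865 in shoot and 1.18 to 1.25 in root.

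Genes were tested by limma 3.58.1 (R 4.3.3) with a trended prior variance, fitted to all 20314 genes passing the filter and adjusted by Benjamini and Hochberg's method. It was tested on simulated data, where unchanged genes made up 27 of 182 calls, 14.8% against a nominal 5%. Far fewer genes were called there than in the data, 182 of 20173 against 14130 of 20314. The simulated share therefore need not hold for the data. Ratios of 2 genes per library were compared by exact permutation (scipy 1.17.1). The 10 genes and the lists were chosen with earlier results of these data known. From each pathway sub-list the text names the 2 most abundant genes, the 2 largest changes in each direction and any called against the majority. GUN4, HEMA3, PPO1, PPO2, CHLD, SGR1, CLH2 and the genes below the filter were named after their values were seen. Gene coordinates agreed between the deposited table and TAIR10.1 for 99.95% of 32548 matched genes, so upstream windows were read there. Alternatives were pseudocounts of 0.1 and 1, other filters, scalings and variance models, limma-voom on the reads, a block for the replicate number, and the omission of libraries. Depth limits low genes: at 1 kb, 3 reads in 1 library correspond to 0.192 to 0.375 FPKM.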

Additional observations from a re-analysis of the deposited data

Results flagged for a closer look

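CHLI1 in root was singled out because 1 library lay far from the rest of its tissue: root library 1 had 14.9 FPKM, and the other root libraries had 12.7 to 13.0 FPKM. Root library 1 also had the highest sum of green tissue markers among the root libraries, 780.3 FPKM, and the part of that in the value was not tested. In all, 66 sets of 4 values were looked at in this way and 1 was singled out, while chance singles out about 1 in 20.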

How the results depend on the processing

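Among the alternatives, the other filters, no trend in the prior variance and the replicate block leave each log2 fold change as it is by construction. Under these, only the adjusted p could move. Of 180 log2 fold changes of the 10 genes under 18 alternatives, 179 kept their direction and their side of the threshold. The exception was HEMA2 with library totals alone, at 0.11 (adjusted p = 0.537, beside 0.000381 to 0.00569 over the others). With that scaling 3997 genes were called higher in shoot and 12142 higher in root (24.8% of calls in shoot), against 6500 and 7630 (46.0%). Without a filter, 4 pathway genes were called higher in root in place of 2, HEMB2 and GUN4 being added. Library totals alone gave 3 in root and 35 in place of 36 in shoot, and leaving out 1 library gave 2 to 3 in root and 35 to 37 in shoot.

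With a pseudocount of 1, the difference in the CHLI1 to CHLI2 log2 ratio turned to 0.012 (exact permutation p = 0.8). Leaving out 1 library gave differences of 2.69 to 2.89 for HEMA1 to HEMA2, -1.99 to -1.91 for GSA1 to GSA2, 3.74 to 3.94 for FC2 to FC1, -0.39 to -0.30 for CHLI1 to CHLI2, 7.17 to 7.66 for CHLH to FC1 and 3.35 to 3.84 for CHLH to FC2. Without root libraries 1 and 2, chosen after seeing the data, they were 2.7, -1.94, 3.72, -0.31, 8.01 and 4.29 in the same order. Pairing by replicate number leaves the differences over all libraries as they are by construction, at 2.76, -1.95, 3.84, -0.34, 7.43 and 3.59. By construction the smallest exact permutation p is 0.0571 with 1 library left out, 0.133 with 2 left out and 0.125 with 4 pairs, so none of these can pass. Correlations of deviations were 0.0152 to 0.071 between same-numbered libraries and -0.0617 to 0.0263 between the others. The labels do not say whether the replicate numbers pair the samples, and these weak correlations cannot decide it. With the replicate block, limma called 6511 genes higher in shoot and 7593 higher in root. Fits without 1 library asked for the minimum in at least 3 libraries.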
